A study of Mus musculus with 44 samples.

Results

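The genes described are Cebpa, Cebpb, Hnf4a, Rxra, Onecut2 and Foxq1, 6 transcription factor genes expressed in liver. Their members among the peaks were those carrying the Ensembl identifier of one of the genes, or lying inside its span in the mouse genome build mm10. This gave 175 of the 17573 peaks in 8 lists, and the genes were 6 of 1420 loci with a peak in any list. The animals were male mice of the inbred C57Bl/6J strain on a high-fat diet, in which fat supplied 42% of calories, and they received vehicle (control), Aroclor1260, PCB126, or Aroclor1260 + PCB126 (the combination) as a single oral exposure at week 2 of 12. Aroclor1260 is a commercial mixture of polychlorinated biphenyls, whereas PCB126 is one defined congener, a dioxin-like agonist of the aryl hydrocarbon receptor. All 4 groups shared the diet, and the sources used here give neither dose nor age. RNA of whole liver was precipitated with an antibody against N6-methyladenosine (m6A) in the assay called MeRIP, with 5 m6A libraries, 5 input libraries and 1 pooled IgG library for each group.

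Each list holds the peaks of a whole treatment, called with the m6A libraries set against input or against IgG. No value belongs to a single animal, so nothing below has a replicate error and no test between treatments was possible. The fold enrichments are the authors' own ratios of m6A over the reference for single peaks. Levels are given side by side and ranked within a list, and sequencing depth is unknown. Against input, the lists held 620 peaks in the control, 506 with Aroclor1260, 2178 with PCB126 and 2284 with the combination. Against IgG they held 2091, 2082, 4129 and 3683 in the same order. Because the tissue was whole liver, markers of its cell types were counted, and of 10 hepatocyte marker genes between 1 and 6 had a peak in each list, whereas of 5 macrophage, 5 endothelial and 5 lymphocyte markers none had a peak in any list. Of the bile duct and stellate cell markers, only Spp1 and Dcn had a peak in any list. Several of the hepatocyte markers had none in any list either. Between 90.9% and 96.3% of the peaks in each list lay on the plus strand. A marker gene on the minus strand could therefore rarely be listed, whatever its cell type. A peak does not measure expression either, so these counts do not give the cell content of the tissue.

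C/EBPα (gene Cebpa) and C/EBPβ (Cebpb) are leucine zipper factors that form dimers with each other. C/EBPα maintains the metabolic programme of the adult hepatocyte, and C/EBPβ drives acute phase and regenerative responses. HNF4α (Hnf4a) is a nuclear receptor that holds hepatocyte identity, and RXRα (Rxra) is the shared partner of the receptors for bile acids, oxysterols, fatty acids and xenobiotics. Onecut2 is a cut-homeodomain factor related to HNF6 that acts in liver and bile duct development, and Foxq1 is a forkhead factor. The m6A mark is laid down on messenger RNA by a nuclear methyltransferase complex, often in long internal exons and around the stop codon and the 3′ end, and its readers affect RNA decay, splicing and translation.

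Against input, 4 of the 6 genes had a peak in the control, 3 with Aroclor1260, 6 with PCB126 and 5 with the combination. Over all loci the shares with a peak in those lists were 18.0%, 16.1%, 48.5% and 50.6%. The genes' peaks numbered 16, 5, 27 and 26 in that order. Against IgG, 6, 5, 6 and 5 genes had a peak, where 42.0%, 42.3%, 77.3% and 70.0% of all loci did, and their peaks numbered 29, 20, 31 and 21. The genes were chosen with earlier results of these lists known, so these counts describe them and nothing is read from their distance to the background. Against input the median fold over their peaks was 2.14 in the control, where the whole list had 2.32, and it was 2.44 against 2.13 with Aroclor1260, 2.76 against 2.45 with PCB126 and 2.52 against 2.40 with the combination. Against IgG their medians were 2.84, 3.21, 3.5 and 4.4, where the whole lists had 2.70, 2.62, 3.3 and 3.2, with the widest gap after the combination. That list held no Foxq1 peak, so the medians do not cover the same genes in every list.

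**Figure D1:**
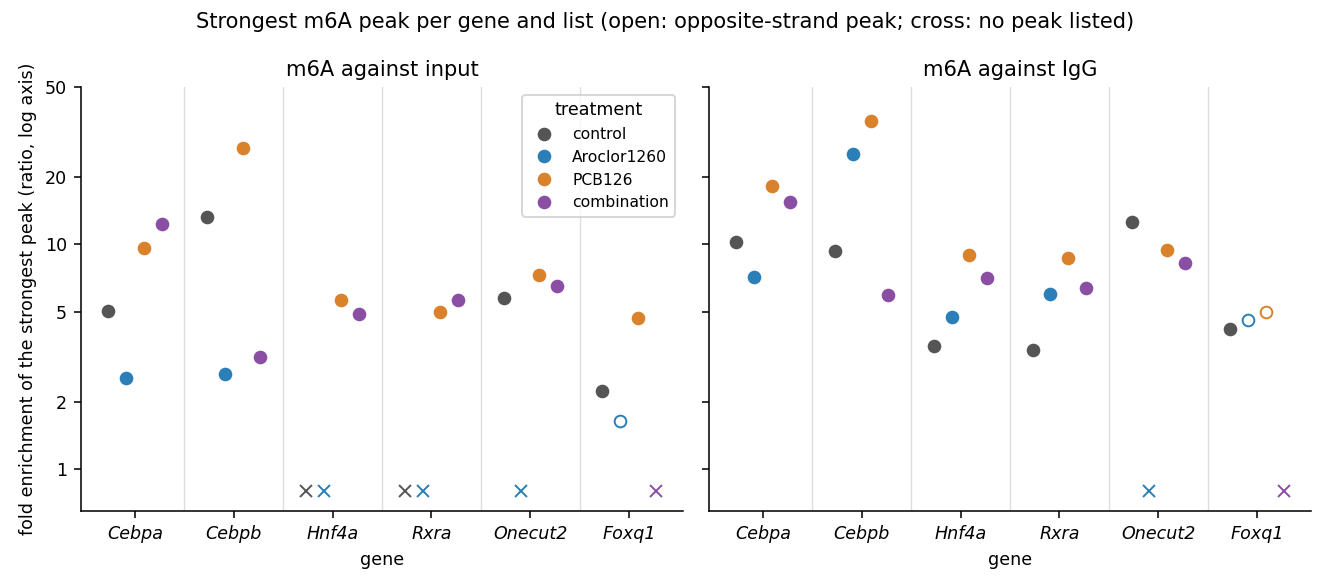
Fold enrichment of the strongest peak (ratio of m6A over the reference, log axis) for each of the 6 genes, with a point for each treatment's list, against input on the left and against IgG on the right. Cebpa and Cebpb have a point in all 8 lists, Hnf4a and Rxra lack one in the control and Aroclor1260 lists against input only, Onecut2 lacks one after Aroclor1260 and Foxq1 after the combination with both references. Open symbols are peaks of an opposite-strand identifier, and crosses stand for lists with no peak.

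The genes fell into 4 patterns of presence. Cebpa and Cebpb were in all 8 lists, as were 141 of the 1420 loci (9.93%). Hnf4a and Rxra were in 6 lists, absent only from the control and Aroclor1260 lists called against input, a pattern shown by 82 loci (5.77%). Onecut2 was absent after Aroclor1260 with either reference and present in the other 6 lists, as were 15 loci (1.06%). Foxq1 was absent after the combination with either reference and present in the other 6, and no other locus had that pattern. Its presence after Aroclor1260 came only from an opposite-strand identifier inside the gene, and by its own identifier Foxq1 was absent there too.

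Cebpa lies on chromosome 7 from 35119293 to 35121928. Against input its strongest peak had a fold of 5.08 in the control, 2.54 with Aroclor1260, 9.60 with PCB126 and 12.3 with the combination. Those peaks outranked 67.5%, 40.6%, 81.7% and 91.9% of the loci in their lists. The Aroclor1260 peak was the lowest placed of the 4, and the combination peak the highest. Against IgG the folds were 10.2, 7.17, 18.2 and 15.4, above 87.4%, 77.7%, 91.3% and 91.3% of loci, with Aroclor1260 again the lowest.

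The Cebpa peaks differed in extent as well as in fold. In the control, 2 peaks covered 947 bases, whereas after PCB126 and after the combination a single peak ran over 1294 and 1244 bases, all against input. After Aroclor1260 the same reference gave a single peak of 249 bases, with a false discovery rate of 0.0209, and it was no longer listed when that rate had to be at most 0.01. Against IgG the Aroclor1260 list held 3 Cebpa peaks over 898 bases, where the control held 947, with false discovery rates from 1.48e-07 to 0.000224, so the short extent and the marginal call hold for input only. When each list against input was reduced to its 506 peaks of lowest false discovery rate, Cebpa had no peak after the combination. That cut goes by the rate and not by the fold, and the peak it dropped had a fold of 12.3. The 249 bases of the Aroclor1260 peak against input, from 35119840 to 35120088, were the only stretch of the gene found in all 8 lists. They lie 547 to 795 bases past the RefSeq gene start, and no Cebpa peak reached beyond base 35120785, so the last part of the gene carried none.

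Cebpb, on chromosome 2 from 167688915 to 167690432, had the strongest peak of the 6 genes. Against input its folds were 13.2 in the control, 2.64 with Aroclor1260, 26.8 with PCB126 and 3.15 with the combination. The control and PCB126 peaks outranked 95.3% and 98.4% of the loci in their lists, the Aroclor1260 and combination peaks 42.8% and 33.0%. Cebpb thus stood near the top of both lists in which it formed 1 long peak and in the middle or lower part of the lists in which it did not. Against IgG the folds were 9.31, 25.3, 35.3 and 5.97, above 85.3%, 98.5%, 97.9% and 56.3% of loci.

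Among the treatments, the choice of reference changed the Cebpb peak most after Aroclor1260. There, the peak against input was 534 bases wide with a fold of 2.64, and the peak against IgG was 1165 bases wide with a fold of 25.3. The same 1165 bases, from 167689012 to 167690176, made up the peak in both control and both PCB126 lists. In the combination the peaks ended earlier, at 167689885 against input and at 167689933 against IgG. All 8 lists began at base 167689012 and shared the first 534 bases, so the lists differed in the 3′ part of the gene, beyond base 167689545.

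A minus-strand identifier, ENSMUSG00000090213, had a peak inside Cebpb in every list, from 167689575 to 167689822 at its widest. Its folds lay between 2.25 and 5.26, and 7 of its 8 peaks overlapped a Cebpb peak of the same list. Whether reads were counted by strand is not given in the sources used here, so reads of Cebpb and of the opposite strand cannot be told apart.

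**Figure D2:**
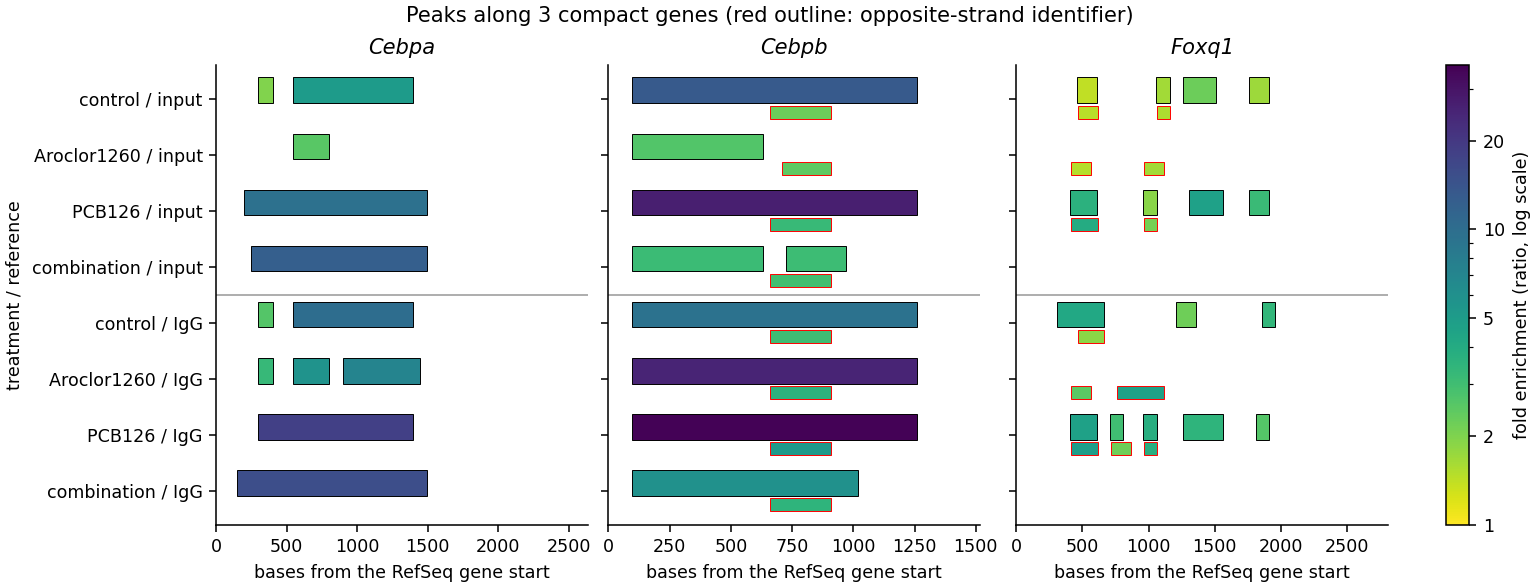
Peaks of Cebpa, Cebpb and Foxq1 in each of the 8 lists, by distance in bases from the RefSeq gene start, coloured by fold enrichment (ratio, log scale). Black outlines are peaks of the gene's own identifier and red outlines those of an opposite-strand identifier. The Cebpa peak is 249 bases wide in the Aroclor1260 list against input, the Cebpb peak is 1165 bases wide in 5 lists, and Foxq1 has own-strand peaks in the control and PCB126 lists only.

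The 2 nuclear receptor genes, Hnf4a and Rxra, had the same presence in all 8 lists. Neither had a peak in the control or after Aroclor1260 against input, and both had one after PCB126 and after the combination. They were the 2 genes gained in each of those exposures, where 63.9% and 65.3% of loci with a peak in either list were gained, and none of the 6 was gained after Aroclor1260 (20.3% of loci). Against IgG both genes already had peaks in the control, 5 for Hnf4a and 8 for Rxra, so that none of the 6 was gained in any exposure, where 23.4% of loci were gained with Aroclor1260, 48.8% with PCB126 and 44.2% with the combination. The 2 gains therefore hold for input as the reference and end with IgG. When each list against input was reduced to its 506 peaks of lowest false discovery rate, Hnf4a still had a peak after PCB126, whereas Rxra had 0. Both genes had peaks after the combination, 7 and 6. The 5 Hnf4a peaks after PCB126 all had a rate listed as 0, as had 113 peaks of that list, so the cut kept them whatever their fold. Their folds ran from 1.21 to 5.68, where the Rxra peaks that dropped out reached 5.02.

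Hnf4a lies on chromosome 2 from 163506811 to 163572907. Its strongest peak had a fold of 5.68 after PCB126 and 4.90 after the combination against input, above 63.7% and 63.1% of the loci in those lists. Against IgG the folds were 3.52 in the control, 4.77 with Aroclor1260, 9.0 with PCB126 and 7.10 with the combination, above 35.3%, 58.9%, 73.0% and 66.2% of loci. The control peak was thus in the lower part of its list and the others above the middle of theirs.

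All 34 Hnf4a peaks lay past the second of its annotated starts. RefSeq gives a distal start at base 163506857 and a proximal one at 163547155, and it is the proximal promoter that adult hepatocytes mainly use. The most upstream peak began at base 163547279 in both PCB126 lists, 124 bases past the proximal start, and at 163547329 in the other 4 lists. No peak fell between the 2 starts. The 250 bases before each start are shown because the peaks begin close to the proximal start and far from the distal one, and the corresponding bases of Rxra follow because the genes share a pattern over the lists. They are from RefSeq on the plus strand of build GRCm38.p6, 5′ to 3′, with capitals marking ATTAAC (or its reverse complement GTTAAT), the half-site of HNF1 factors, and AGGTCA (or TGACCT), the half-site of many nuclear receptors.
Hnf4a distal start, chr2:163506607-163506856: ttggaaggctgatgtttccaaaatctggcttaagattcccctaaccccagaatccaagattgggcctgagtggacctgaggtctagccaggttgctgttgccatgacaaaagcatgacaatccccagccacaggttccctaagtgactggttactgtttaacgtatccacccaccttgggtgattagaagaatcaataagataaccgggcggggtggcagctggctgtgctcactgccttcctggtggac
Hnf4a proximal start, chr2:163546905-163547154: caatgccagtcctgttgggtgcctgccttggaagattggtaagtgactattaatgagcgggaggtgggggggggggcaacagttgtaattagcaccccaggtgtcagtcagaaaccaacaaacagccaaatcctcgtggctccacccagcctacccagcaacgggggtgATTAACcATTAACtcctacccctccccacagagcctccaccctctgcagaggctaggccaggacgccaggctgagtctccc
Rxra first start, chr2:27676951-27677200: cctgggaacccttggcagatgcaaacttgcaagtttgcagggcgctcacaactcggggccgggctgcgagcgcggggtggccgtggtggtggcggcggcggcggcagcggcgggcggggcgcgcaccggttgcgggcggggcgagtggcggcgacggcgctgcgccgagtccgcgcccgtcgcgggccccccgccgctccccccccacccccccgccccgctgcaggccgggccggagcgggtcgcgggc
Rxra second start, chr2:27709042-27709291: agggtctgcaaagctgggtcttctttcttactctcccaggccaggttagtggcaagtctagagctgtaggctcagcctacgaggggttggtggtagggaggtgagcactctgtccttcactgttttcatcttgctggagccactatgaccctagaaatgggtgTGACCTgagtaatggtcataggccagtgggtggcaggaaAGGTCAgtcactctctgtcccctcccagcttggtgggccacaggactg
Only exact matches were counted. The proximal Hnf4a window held 2 matches to ATTAAC, 81 and 74 bases before the start, and the distal window 0. The distal window does hold tttaac, which differs from ATTAAC in its first letter. Its 0 therefore does not show that it lacks a site for HNF1 factors. Of 32851 RefSeq promoter windows of the same 250 bases, 6.43% held that motif on either strand. The second Rxra window held 2 matches to AGGTCA or its complement, 87 and 48 bases before the start, against 0 in the other 3 windows and a share of 14.0% over all windows. The motifs do not overlap each other here, and a match is a description of letters, not of binding.

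Most Hnf4a peak bases lay at the 3′ end. The exonic blocks of its peaks showed 9 junctions, the last of which opened at base 163569949, 2959 bases from the end of the gene counting that base. Of the exonic bases in Hnf4a peaks, between 60.2% (control against IgG) and 76.7% (combination against input) lay past that junction. In each of the 6 lists the strongest peak reached into this last block. The longest stretch common to those lists ran 499 bases, from 163570571 to 163571069. A short first block of 91 bases, from 163547329 to 163547419, was common to them too, with folds from 1.60 to 2.60 for the peaks that held it.

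Rxra lies on chromosome 2 from 27676445 to 27763319. Its strongest peak had a fold of 5.02 after PCB126 and 5.66 after the combination against input, above 57.6% and 69.6% of loci. Against IgG the folds were 3.38 in the control, 6.00 with Aroclor1260, 8.7 with PCB126 and 6.38 with the combination, above 33.2%, 70.9%, 72.2% and 60.1% of loci. As for Hnf4a, the control value was in the lower part of its list.

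Rxra had the most peaks of the 6 genes, 44 over 6 lists, between 6 and 8 in each. All lay past both of its annotated starts, the first at base 27737360, which is 60915 bases past the gene start. Blocks showed 5 junctions, and from 76.8% to 88.6% of the peak bases lay past the last of them, which opened at 27756199. That junction was seen only after Aroclor1260 against IgG, and no list had peak bases between 27756288 and 27759581. Whether a further junction lies in that gap is therefore not known. Beyond the gap the peaks formed separate islands, and 597 bases from 27761666 to 27762262 were the longest stretch common to the 6 lists. The strongest peak sat in this island after the combination with both references and after Aroclor1260 against IgG, and further upstream, between 27759879 and 27760971, in the control against IgG and in both PCB126 lists.

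**Figure D3:**
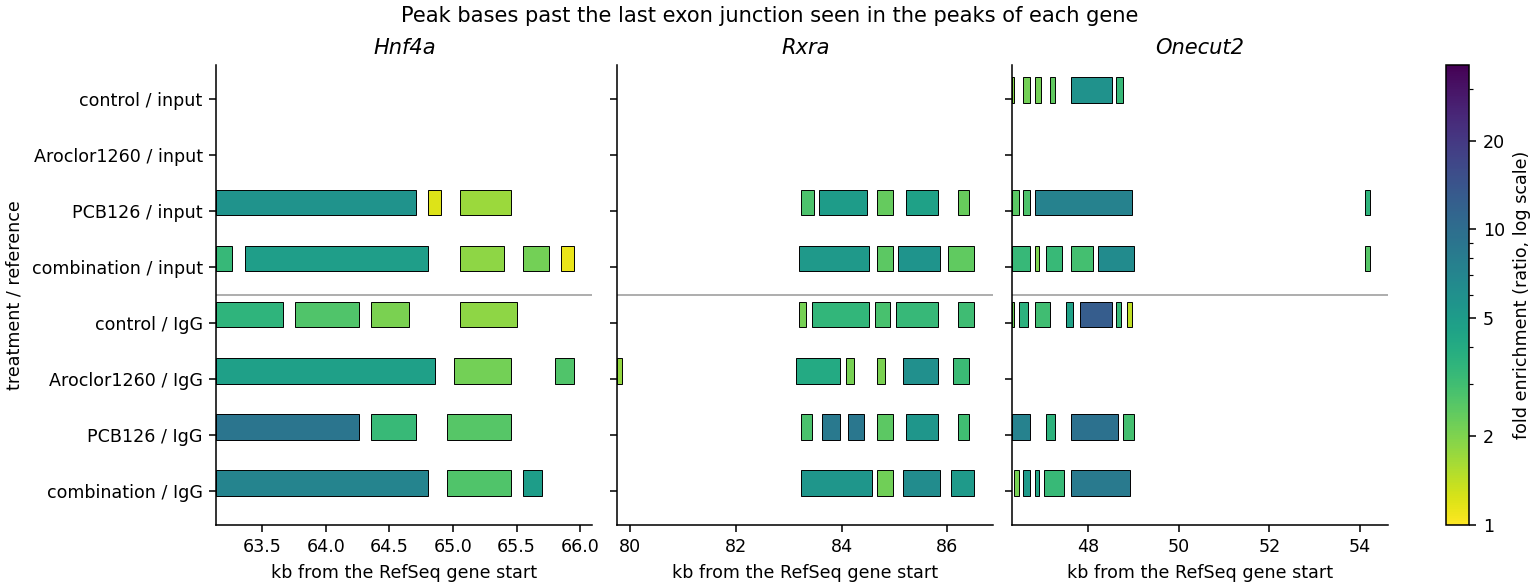
Peak bases past the last exon junction seen in the peaks of Hnf4a, Rxra and Onecut2, by distance in kb from the RefSeq gene start, for each of the 8 lists and coloured by fold enrichment (ratio, log scale). Hnf4a and Rxra are empty in the control and Aroclor1260 lists against input and filled in the same places against IgG, and Onecut2 is empty in both Aroclor1260 lists.

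Onecut2, on chromosome 18 from 64340032 to 64398488, was the gene lost after Aroclor1260. Its strongest peak had a fold of 5.79 in the control, 7.31 after PCB126 and 6.50 after the combination against input, and of 12.6, 9.4 and 8.3 against IgG. It outranked 73.7%, 73.5% and 76.2% of loci against input and 92.3%, 74.6% and 73.4% against IgG. The gene stood at a like place in the 3 lists against input, and higher in the control list than in the exposed lists against IgG. After Aroclor1260 it had 0 peaks with either reference, where the control had 6 against input and 8 against IgG. Over all loci with a control peak, 35.7% were lost after Aroclor1260 against input and 29.8% against IgG. When each list against input was reduced to its 506 peaks of lowest false discovery rate, Onecut2 had no peak after PCB126 or after the combination. That cut goes by the rate and not by the fold, and the strongest peaks it dropped were those of 7.31 and 6.50.

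The Onecut2 peaks lay in the first exon and in the first part of the last block, apart from 1 further on. Their blocks showed 1 junction, from the first exon to base 64386345, and between 65.6% and 77.3% of peak bases lay past it. In all 6 lists the strongest peak lay in the same stretch of the last block, between 64386847 and 64389045. The bases common to those lists included 301 from 64387846 to 64388146 and 351 in the first exon from 64341063 to 64341413. That peak, of 101 bases from 64394141 to 64394241, was listed after PCB126 and after the combination against input and in no other list. Its folds were 3.5 and 2.56, above 70% and 54.7% of the peaks in those lists, and its false discovery rates were 0.0427 and 0.0269.

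Foxq1 lies on chromosome 13 from 31558170 to 31560976 and was the gene lost after the combination. Its strongest peak had a fold of 2.23 in the control, 1.64 after Aroclor1260 and 4.71 after PCB126 against input, above 19.6%, 16.6% and 53.2% of loci. Against IgG the folds were 4.2, 4.60 and 5.00, above 44.2%, 55.7% and 38.3% of loci, where the Aroclor1260 values and the 5.0 are of a minus-strand identifier. These were the lowest ranks in the control list among the genes with a peak there against input. After the combination Foxq1 had 0 peaks with either reference, where 6.67% of loci with a control peak were lost against input and 12.6% against IgG. No gene of the 6 was lost after PCB126, where 7.06% of loci were lost against input and 11.4% against IgG.

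The strand divides the Foxq1 result. The plus-strand identifier of Foxq1 had 4 peaks in the control and 4 after PCB126 against input, and 3 and 5 against IgG. It had 0 after Aroclor1260 and 0 after the combination with both references, a pattern that 2 of 1512 identifiers had, Foxq1 included. All Foxq1 peaks after Aroclor1260, 2 with each reference, belonged to the minus-strand identifier ENSMUSG00000090863, whose 12 peaks lay between 31558583 and 31559333 and had folds from 1.47 to 5.00. Of these 12, the 8 in control and PCB126 lists each overlapped a plus-strand Foxq1 peak of the same list, and the 4 after Aroclor1260 had none to overlap. Counting the gene's own identifier only, the genes lost after Aroclor1260 against input were 2, Onecut2 and Foxq1. As for Cebpb, reads of the 2 strands cannot be told apart.

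The places common to the 4 lists with own-strand Foxq1 peaks spanned 151 bases from 31558630 to 31558780, 51 bases from 31559478 to 31559528 and 50 bases from 31560028 to 31560077. Foxq1 peaks were narrow, from 100 to 351 bases, where Cebpb reached 1165, Rxra 1342, Cebpa 1344, Hnf4a 2091 and Onecut2 2149 exonic bases.

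Control peaks were looked for one by one in the exposed lists, with an overlap of at least 1 bp on the same strand. Of the 16 control peaks of the genes against input, 5 were found with Aroclor1260, 16 with PCB126 and 10 with the combination, and over all control peaks the shares found were 50%, 88.2% and 87.4%. The 6 not found after the combination were the 6 at Foxq1, and the 11 not found after Aroclor1260 were 6 at Onecut2, 4 at Foxq1 and 1 at Cebpa. Against IgG, 18, 27 and 25 of 29 were found, with 56.8%, 79.4% and 74.6% over all control peaks. The comparisons share the control list and are not independent of each other.

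Peaks called against input were looked for in the lists against IgG of the same treatment. They were found there for 14 of 16 peaks of the genes in the control, 5 of 5 with Aroclor1260, 24 of 27 with PCB126 and 23 of 26 with the combination, where 85%, 88.3%, 87.9% and 81.9% of all peaks in those lists were. In the opposite direction, 14 of 29, 5 of 20, 27 of 31 and 21 of 21 were found, where 24.4%, 21%, 47% and 52.9% of all peaks were, so that the control and Aroclor1260 lists had the lower shares for all peaks as well. In each of those lists Hnf4a had 5 and Rxra 8 peaks with IgG and none with input.

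The named loci nearest to each gene over the 8 lists were found by the distance between log2 folds of the strongest peaks, with 0 where a list had none. Hnf4a and Rxra were each other's nearest, at a distance of 0.46, followed by Ly6g2 at 0.71 for Hnf4a and Proz at 0.72 for Rxra. Zfp281 at 0.88 and Trib1 at 1.00 were nearest to Cebpa, and Mtmr10 at 0.96 and Dph7 at 1.01 to Onecut2. Cebpb and Foxq1 had no close neighbour, with Gm4951 at 2.76 and Mgat1 at 2.82 for Cebpb and Sdf2 at 1.97 and Cish at 2.28 for Foxq1. The 8 lists share libraries, since each m6A set was used against both references.

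Other transcription factor genes of the liver were counted for comparison. Of 63 such genes, 16 had a peak in any list. Of all peaks in the lists, 95.2% lay on the plus strand, so genes on the minus strand were rarely listed. The strand of the genes without a peak is not given here, so their absence is not read as a result about them. Against input, 4 had a peak in the control, 3 with Aroclor1260, 11 with PCB126 and 9 with the combination. Against IgG these counts were 10, 7, 14 and 13. The 63 genes were counted whether or not they had a peak, whereas every locus below had one, so the bases differ. Of the 1420 loci with a peak in any list, 18.0%, 16.1%, 48.5% and 50.6% had one against input. Against IgG 42.0%, 42.3%, 77.3% and 70.0% did, so the lists differed for all loci as well. Klf15, a regulator of amino acid and glucose metabolism, and Foxo1, which insulin restrains, were in all 8 lists like Cebpa and Cebpb, with folds against input of 4.84, 5.26, 9.79 and 8.59 for Klf15 and 6.36, 9.73, 11.1 and 9.86 for Foxo1. Dbp, a clock output factor, was lost after Aroclor1260 against input from a control fold of 2.25, but had 6 peaks there against IgG. Ppara, the fatty acid receptor and a partner of RXRα, had folds of 8.59, 9.63 and 14.4 in the control, Aroclor1260 and PCB126 lists, and 0 peaks after the combination against input, where IgG gave 3.

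Several had the presence of Hnf4a and Rxra against input, absent in the control and after Aroclor1260 and present in both other lists. These were Cebpd, a relative of Cebpb, with folds of 8.12 after PCB126 and 7.24 after the combination, Xbp1, a factor of the unfolded protein response, with 2.86 and 2.85, Zhx2 with 2.93 and 2.90, the retinoic acid receptor gene Rara with 3.70 and 3.08, and Pparg with 1.86 and 3.00. Cebpd, Xbp1, Zhx2 and Rara had control peaks against IgG, as Hnf4a and Rxra did, and Pparg had none. Unlike Hnf4a and Rxra, Cebpd, Zhx2 and Rara had no peak after Aroclor1260 against IgG. Over all loci, 244 of 1420 (17.2%) had this presence against input. Tbx3 and Rora were listed after PCB126 alone against input, with folds of 4.67 and 15.1. The bile acid-induced repressor gene Nr0b2 was listed after the combination alone against input, with 3.30. Against IgG, Tbx3 was listed in every exposure, Nr0b2 after PCB126 and after the combination, and Rora in no list.

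**Figure D4:**
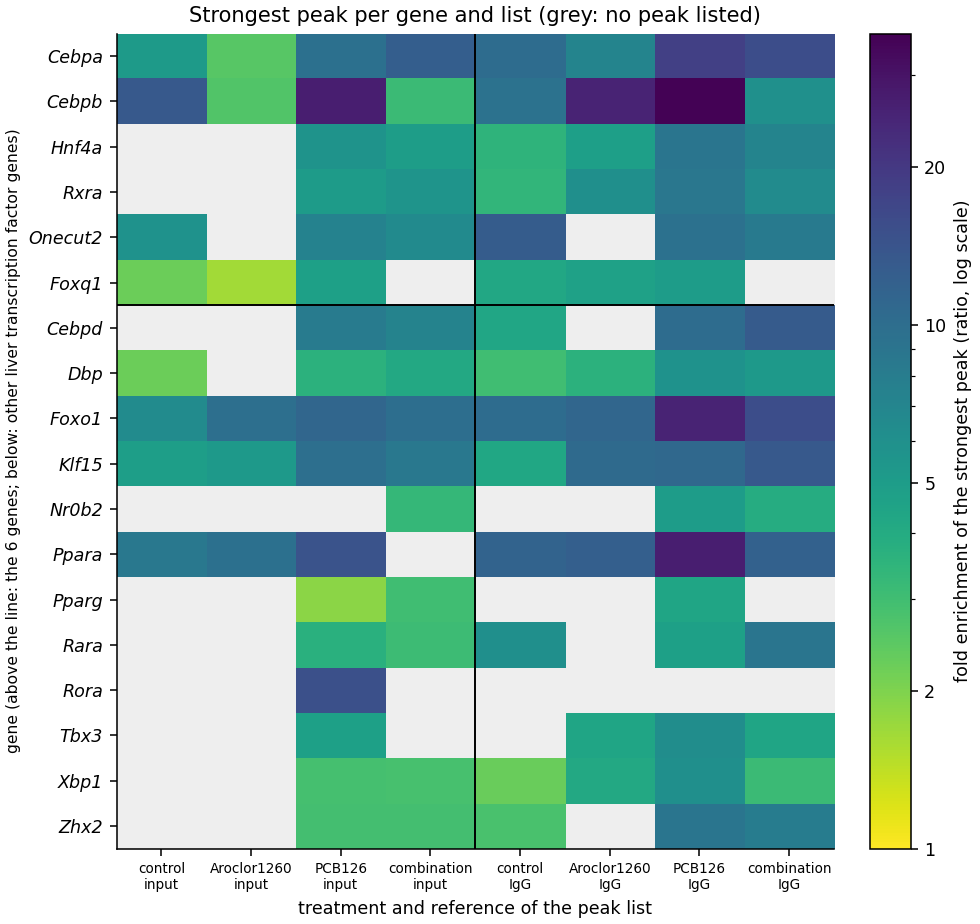
Fold enrichment of the strongest peak (ratio, log colour scale, grey where no peak is listed) in each of the 8 lists, for the 6 genes above the line and for the 12 other liver transcription factor genes with a peak in at least 1 list against input below it. Foxo1 and Klf15 are filled in all 8 lists like Cebpa and Cebpb. Against input, Cebpd, Pparg, Rara, Xbp1 and Zhx2 are grey in the control and Aroclor1260 cells and filled in the others, like Hnf4a and Rxra.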

How the data were processed

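Peaks came as 8 MeTPeak tables deposited by the authors, 1 per treatment and reference. The build named was mm10 and the tools were BWA 0.7.17, Trimmomatic, FastQC 0.10.1 and bcl2fastq 2.20.0.422, per the submitters' processing notes. The sources used here do not state the peak caller's version, settings or annotation. Per the file headers, each peak had a fold enrichment, a linear ratio computed by the authors' caller. Per the file headers, each peak also had a p-value and a log10 false discovery rate, at most 0.049 once turned back to a rate. That rate was listed as 0 for some peaks of every list, from 32 to 215 of them. Replicates were used together within a list, so precision per animal is unknown.

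Starts were read as those of BED files and counted from 1. Of 1512 Ensembl identifiers, 1395 were named by the RefSeq gene of GRCm38.p6 that held at least 80% of their peak bases, and 117 were not. Identifiers of the same name were joined, which gave 1420 loci, 87 of them from several identifiers. A locus counted as gained where an exposed list held it and the control's did not, and as lost the other way round. The share gained is over loci in either list and the share lost over control loci. Lists against input were the main ones. Own identifiers were those on the plus strand. Of the 6 genes, 4 had RefSeq promoter sequences. Overlap, joining and naming were tested on simulated data (Python 3.11.15, pandas 2.3.3). The genes and lists were chosen with earlier results of these data known. The named loci were the 6 genes, the other liver transcription factor genes with a peak in at least 1 list against input, and the 2 nearest loci of each gene. Mlxipl, Tef and Hhex, in the closing section, fall outside that rule. One result on another gene is not reported here.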

Additional observations from a re-analysis of the deposited data

How the results depend on the processing

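No paired analysis was possible because each list pools the libraries of a treatment, and for the same reason no library was left out. Depth limits every absence, since the number of reads behind a list is unknown. With the lists called against IgG, the peaks of the 6 genes numbered 29 in the control (16 against input) and 20 after Aroclor1260 (5), where 5 genes had a peak (3). Then 0 genes were gained after PCB126 and 0 after the combination (2 each), and 18, 27 and 25 control peaks were found after Aroclor1260, PCB126 and the combination (5, 16 and 10). With a fold of at least 2, the peaks numbered 9 in the control, 3 after Aroclor1260 and 17 after the combination (26), and 2 genes were lost after Aroclor1260 (1). With a false discovery rate of at most 0.01, 2 were lost after Aroclor1260. With own identifiers only, and with the own strand only, there were 2 peaks after Aroclor1260 and 2 genes lost. With 506 peaks per list, there were 14 peaks after PCB126 (27) and 14 after the combination (26), where 3 genes had a peak (5), with 1 gained (2) and 1 lost (0) after PCB126 and 3 lost after the combination (1). With a reciprocal overlap of 50%, 2, 9 and 5 control peaks were found. The cause of these differences was not tested. Joining peaks within 50 bp moved none of 38 counts by over 1.5 times.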

Other observations

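Among the other liver transcription factor genes, Mlxipl, Tef and Hhex had peaks only in lists called against IgG, and they are named after their values were seen. Mlxipl, the carbohydrate-responsive factor ChREBP, had peaks in all 4 of those lists, with strongest folds of 5.2 in the control, 4.2 with Aroclor1260, 6.6 with PCB126 and 2.93 with the combination. The clock output gene Tef had folds of 6.28 after PCB126 and 4.60 after the combination, with none in the control or after Aroclor1260. Hhex, a homeobox gene of liver development, was listed in the control only, with a fold of 1.95.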
